A study of Mus musculus with 15 samples.

Results

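CXCR3 is the chemokine receptor of activated T cells and NK cells, and its ligands in the mouse are CXCL9, CXCL10 and CXCL11. The receptor gene Cxcr3 and the ligand genes Cxcl9, Cxcl10 and Cxcl11 were taken by name from a table of estimated gene counts, which gave 4 genes of 32543 named entries. All 4 passed the filter on low counts, which left 15494 genes. The tumors were WEHI-164, a BALB/c fibrosarcoma line, grown under the skin of female BALB/c mice, and whole tumors were sequenced. Untreated tumors made up the day 0 group. Tumors of days 1, 3, 5 and 7 had received poly(I:C), a synthetic double-stranded RNA sensed by Toll-like receptor 3, by daily injection into the tumor. The labels give 1 µg in 25 µL with 6 doses planned. A supplementary legend of the study gives a higher daily amount, so the dose is uncertain. There were 3 tumors on each day and 15 in all. No vehicle-treated tumors of the later days were among the samples, so treatment and time in the host cannot be told apart. The labels do not tie replicate numbers to cages or litters. Below, p-values for differences between days weigh those differences against the spread between these tumors.

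The 3 ligands are small secreted proteins induced by interferon. CXCL9 depends mostly on interferon gamma, whereas CXCL10 and CXCL11 also respond directly to type I interferon and to double-stranded RNA sensors through IRF factors and NF-kappaB. They share CXCR3, a G protein-coupled receptor whose expression in T cells and NK cells depends on the transcription factor T-bet. The ligands are known for drawing such cells into inflamed tissue and tumors. In tumors, macrophages, dendritic cells, endothelial cells and the tumor cells themselves can make them. A whole-tumor count does not separate these sources, and fewer cells of a type cannot be told apart from less RNA per cell.

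The ligand genes lie side by side on chromosome 5, all on the minus strand. In GENCODE release M21 on GRCm38, Cxcl9 (ENSMUSG00000029417.9) spans 92321347 to 92328079, Cxcl10 (ENSMUSG00000034855.13) spans 92346638 to 92348889 and Cxcl11 (ENSMUSG00000060183.6) spans 92359544 to 92365485. The gap between Cxcl9 and Cxcl10 is 18559 bases and that between Cxcl10 and Cxcl11 is 10655 bases. Cxcr3 (ENSMUSG00000050232.6) lies on the minus strand of chromosome X, from 101731535 to 101734269. Cxcl11 is annotated as a polymorphic pseudogene, because the reference strain carries a disrupted copy, while these tumors and hosts were BALB/c. Art3, on the opposite strand, spans all of Cxcl10 and Cxcl11. Its exons share 133 bases with those of Cxcl10 and 0 with those of Cxcl11, and a processed pseudogene, Gm2673, shares 1582 exon bases with Cxcl11. Whether the counting used strand was not stated, so reads in the shared bases are uncertain. Art3 itself was low, from 0.919 to 3.92 CPM (counts scaled to a common library size) in 14 tumors and 17.9 CPM in day 3 replicate 1.

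Promoter sequences of 3 of the genes are shown because the known inducers of these genes act at short motifs near the start site. They come from RefSeq on GRCm38.p6 and run from 250 bases before to 50 bases after the start, 5′ to 3′ on the gene's strand. Cxcl11 had no entry. Both strands were searched for the interferon-stimulated response element core GAAANNGAA, the STAT element (GAS) TTCNNNGAA, the NF-kappaB site GGGANTTCC and the T-box site TCACACC, all chosen with the sequences in view. Capitals mark the matches.
Cxcl9, chr5:92328030-92328329, minus strand: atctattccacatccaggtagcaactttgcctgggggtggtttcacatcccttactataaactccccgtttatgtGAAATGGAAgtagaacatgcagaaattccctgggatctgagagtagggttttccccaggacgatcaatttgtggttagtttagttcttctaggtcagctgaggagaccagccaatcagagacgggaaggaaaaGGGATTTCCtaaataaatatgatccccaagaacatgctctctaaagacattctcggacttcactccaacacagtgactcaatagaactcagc
Cxcl10, chr5:92348840-92349139, minus strand: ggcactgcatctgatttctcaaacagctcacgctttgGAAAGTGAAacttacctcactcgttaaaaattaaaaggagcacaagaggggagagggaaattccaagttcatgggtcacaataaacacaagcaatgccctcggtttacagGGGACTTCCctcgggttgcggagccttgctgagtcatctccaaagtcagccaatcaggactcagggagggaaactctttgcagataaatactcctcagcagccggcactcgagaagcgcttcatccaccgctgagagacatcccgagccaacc
Cxcr3, chrX:101734098-101734397, minus strand: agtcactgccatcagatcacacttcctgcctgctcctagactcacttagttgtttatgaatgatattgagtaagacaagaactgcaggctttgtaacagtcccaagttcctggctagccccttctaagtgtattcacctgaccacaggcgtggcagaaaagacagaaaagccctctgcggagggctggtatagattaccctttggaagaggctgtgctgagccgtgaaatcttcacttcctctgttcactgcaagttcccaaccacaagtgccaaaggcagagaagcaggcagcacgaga

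Both ligand promoters held the interferon element core and an NF-kappaB site on the gene's strand. In Cxcl9 the first match was GAAATGGAA, from position -175 to -167 relative to the start, and the second was GGGATTTCC, from -42 to -34. In Cxcl10 they were GAAAGTGAA, from -213 to -205, and GGGACTTCC, from -103 to -95. Neither held these letters of the GAS motif in this window, and the Cxcr3 window held none of the 4 motifs. Of 32851 promoters in the table, 8.56% held the interferon element core, 8.3% the GAS letters, 1.68% the NF-kappaB letters and 3.98% the T-box letters. These matches describe the sequences and were not tested for binding.

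The libraries held 23.7 to 31.9 mega-counts each, and every pair of tumors of the same day differed by more than counting noise. Day 3 replicate 1 stood apart, with a mean correlation to the other tumors of 0.884 against 0.956 or more for the rest. It also held 2396 CPM of 8 skeletal muscle genes, against at most 151.9 CPM in any other tumor, and 267 CPM of 7 adipocyte genes, against at most 58.6 CPM. B cell genes summed there to 38.0 CPM against at most 8.635 CPM elsewhere, and lymph node stroma genes to 238.5 against 157 CPM. T cell genes summed to 412 against 227.5 CPM and endothelial genes to 601 against 330 CPM. Dendritic cell, keratinocyte and erythroid genes were highest in other tumors. Fold changes and list counts of day 3 are therefore given with and without day 3 replicate 1. Day 1 replicate 3 held the highest Cxcl10 and Cxcl11 levels of all tumors, and its cell type markers also differed from those of the other day 1 tumors. Its T cell genes summed to 108 CPM against 35.7 and 36.0 CPM, its NK and cytotoxic cell genes to 342.5 against 90.5 and 133.9 CPM and its macrophage genes to 2745 against 1319 and 1646 CPM. Erythroid genes, which mark blood, summed to 123.5 CPM in that tumor, 13.6 and 15.3 CPM in the other day 1 tumors, 9.48 to 22.1 CPM on day 0 and 29.0 to 221 CPM on day 7. The part of these cells in the levels below was not tested, and fold changes of day 1 are given with and without that tumor.

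Cxcl9 and Cxcl10 were among the more abundant transcripts of these tumors and Cxcr3 was scarce. Averaged over 15 tumors, Cxcl9 stood at 295.8 CPM, with 3.41% of tested genes above it, Cxcl10 at 199 CPM, with 5.86% above it, Cxcl11 at 64.2 CPM and Cxcr3 at 3.84 CPM. Per kilobase of annotated exon, day means ran from 58.0 to 139 CPM for Cxcl9 and from 55.5 to 125 CPM for Cxcl10. On that scale Cxcl11 ran from 9.66 to 29.5 CPM and Cxcr3 from 0.808 to 6.24 CPM. All 3 ligand transcripts were thus present before any injection.

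**Figure D1:**
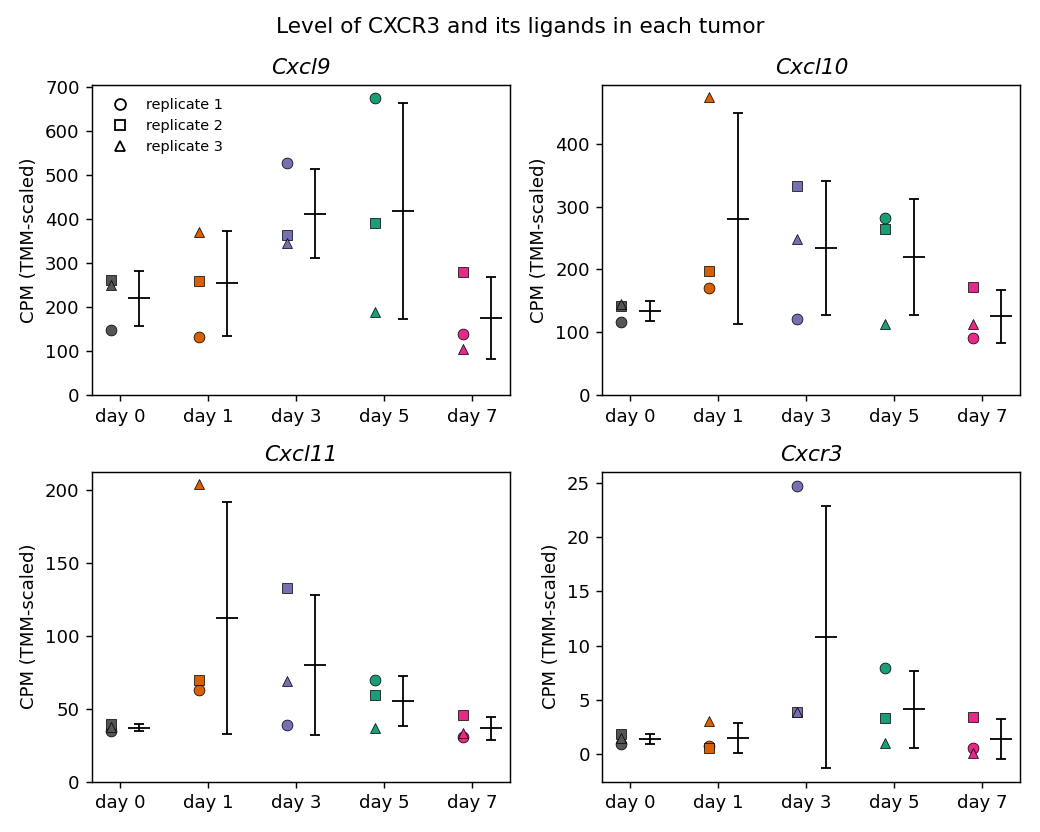
Level of each gene in each tumor, in CPM scaled by TMM factors, by harvest day, with the replicate number as the marker and the mean ± SD of 3 tumors beside the points. Cxcl10 and Cxcl11 peaked in a single day 1 tumor (474 and 204 CPM), Cxcl9 in a day 5 tumor (676 CPM) and Cxcr3 in a single day 3 tumor (24.7 CPM).

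No gene, these 4 included, was called on any day by edgeR's quasi-likelihood test at an adjusted p under 0.05 over all genes (0.0% of 15494 genes in each of the 6 comparisons and in the joint test of the 4 treated days). At an unadjusted p under 0.05 the joint test took in 16.2% of all genes, with Cxcl11 (unadjusted p = 0.0168, edgeR adjusted p = 0.292) and Cxcr3 (unadjusted p = 0.0416, edgeR adjusted p = 0.299) among them. Cxcl9 and Cxcl10 had joint edgeR adjusted p-values of 0.350 and 0.362. DESeq2's likelihood ratio test called Cxcl11 (adjusted p = 0.0259), as it did 7.84% of the genes it tested, and none of the other 3. That call held without day 3 replicate 1 (DESeq2 adjusted p = 0.00307) and without day 1 replicate 3 (DESeq2 adjusted p = 0.0381).

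In order of day means, Cxcl10 and Cxcl11 were highest on day 1, then day 3, day 5, day 0 and day 7. Cxcl9 was highest on day 5, then day 3, day 1, day 0 and day 7, and Cxcr3 on day 3, then day 5, day 1, day 0 and day 7. For each gene, the tumors of every day overlapped those of the next day in its order. The day 1 means of Cxcl10 and Cxcl11 took in replicate 3, at 474 and 204 CPM. By day medians Cxcl10 was highest on day 5, at 264 CPM against 198 CPM on day 1. Medians of Cxcl11 were 69.8 CPM on day 1 and 68.8 CPM on day 3. With 1 tumor left out at a time, log2 fold changes of day 3 against day 1 ran from -0.61 to 0.35 for Cxcl10. For Cxcl11 they ran from -1.06 to 0.28. The share of the variance of log2 CPM that lay between days was 52.6% for Cxcl11, 47.9% for Cxcr3, 45.1% for Cxcl9 and 39.1% for Cxcl10. Over all 1401400 divisions of the tumors into days, exact permutation p-values were 0.0746, 0.132, 0.171 and 0.243, and adjusted over 7 such tests they were 0.234, 0.234, 0.239 and 0.280.

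With all tumors kept, Cxcl11, the ligand with the highest known affinity for the receptor, differed most from day 0 on day 1. It stood at 34.8, 39.3 and 37.3 CPM in the untreated tumors. On day 1 it stood at 62.6, 69.8 and 204 CPM in replicates 1, 2 and 3. All 3 day 1 tumors lay above all 3 untreated tumors, and replicate 3 lay far above the other two. By edgeR the log2 fold change reached 1.59 ± 0.48 (standard error, unadjusted p = 0.0058, edgeR adjusted p = 1.0). With day 1 replicate 3 left out it was 0.84 (edgeR adjusted p = 1.0).

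By day means Cxcl10 had the same order of days. Its untreated values were 116, 142 and 144 CPM, and its day 1 values were 170.5, 198 and 474 CPM. The groups did not overlap, and replicate 3 was again the highest. The log2 fold change came to 1.07 ± 0.46 (standard error, unadjusted p = 0.0385, edgeR adjusted p = 1.0), and 0.46 without replicate 3. Both genes were thus without overlap on day 1, which held for 5.76% of all genes in this direction. Both had an unadjusted p under 0.05, as did 2.18% of all genes, and neither did once replicate 3 was left out, against 0.815% of all genes. Cxcl9 and Cxcr3 overlapped day 0 on day 1, with log2 fold changes of 0.21 ± 0.49 and 0.06 ± 1.09 (standard errors), which were -0.16 and -1.08 without replicate 3.

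On day 3 the level of Cxcl11 was 39.0, 133 and 68.8 CPM and that of Cxcl10 was 121, 333 and 249 CPM. In both, replicate 1 lay within the untreated range and replicates 2 and 3 lay above it. The log2 fold changes against day 0 were 1.11 ± 0.48 for Cxcl11 and 0.81 ± 0.46 for Cxcl10 (standard errors, edgeR adjusted p = 0.150 and 0.232). Leaving out day 3 replicate 1 made them 1.45 and 1.12 (unadjusted p = 0.00906 and 0.0301 by edgeR, with adjusted p-values over 0.05). Leaving out day 3 replicate 2 instead made them 0.54 and 0.47. Day 5 values were 69.6, 59.6 and 36.7 CPM for Cxcl11 and 282, 264 and 113 CPM for Cxcl10, with replicate 3 in the untreated range for Cxcl11 and below it for Cxcl10. Day 7 values were 30.9, 45.7 and 33.3 CPM for Cxcl11 and 90.3, 171 and 114 CPM for Cxcl10. Those values overlapped day 0, with log2 fold changes of -0.02 (95% interval -1.04 to 1.00) for Cxcl11 and -0.10 (95% interval -1.09 to 0.89) for Cxcl10.

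Cxcl9, the ligand most tied to interferon gamma, stood highest on days 3 and 5. Its untreated values were 147, 261 and 251 CPM. Day 1 values were 131, 260.0 and 370.3 CPM, which spread over and beyond the untreated range. Day 3 values were 529, 363 and 345 CPM, all above day 0, as held for 19.4% of all genes. This gave a log2 fold change of 0.91 ± 0.49 (standard error, edgeR adjusted p = 0.213), which became 0.69 once day 3 replicate 1 was left out. On day 5 the values were 676, 392 and 188 CPM, which overlapped day 0 (log2 fold change 0.93 ± 0.49, standard error, edgeR adjusted p = 0.859). That value was 0.40 with day 5 replicate 1 left out. None of the 4 genes was without overlap on day 5, against 6.89% of all genes.

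By day 7 Cxcl9 stood at 139.7, 279.8 and 105 CPM. All 3 tumors lay below the day 3 tumors, as held for 18.4% of all genes, with a log2 fold change of -1.24 ± 0.50 (standard error, edgeR adjusted p = 0.109). DESeq2 called this difference (adjusted p = 0.0479), along with 15% of the genes it tested as lower. It no longer did with day 3 replicate 1 left out (DESeq2 adjusted p = 0.296). Between days 3 and 7, Cxcl9, Cxcl11 and Cxcr3 had an unadjusted p under 0.05 by edgeR, against 22.6% of all genes in this direction. Cxcl11 had a log2 fold change of -1.13 ± 0.48 and Cxcl10 of -0.91 ± 0.46 (standard errors, edgeR adjusted p = 0.119 and 0.170), and both overlapped between these days. The log2 fold changes between days 3 and 7 without day 3 replicate 1 were -1.01 for Cxcl9, -1.45 for Cxcl11 and -1.21 for Cxcl10. The unadjusted edgeR p was then under 0.05 for Cxcl10 and Cxcl11 only, against 8.48% of all genes in this direction.

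**Figure D2:**
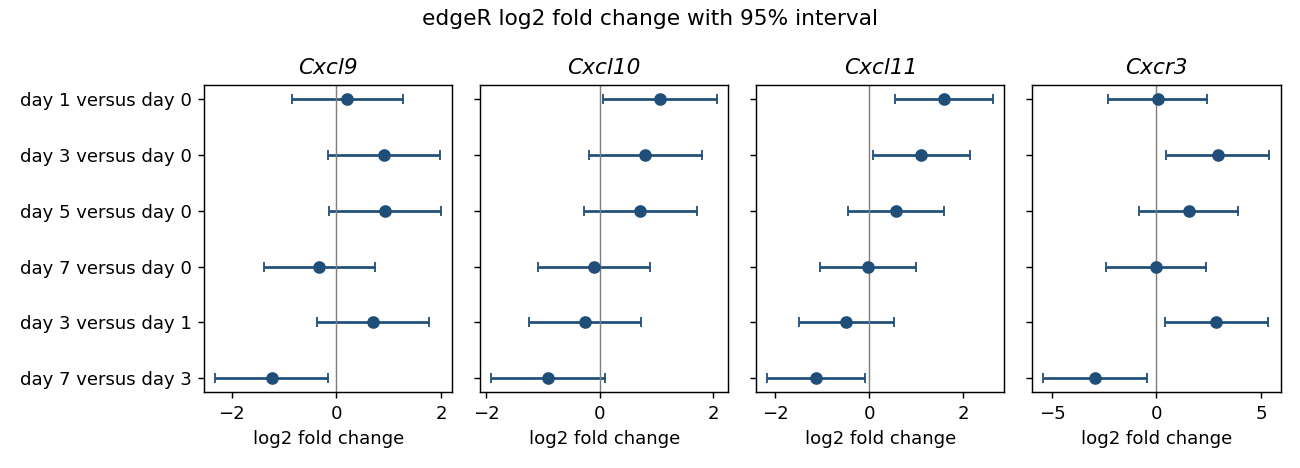
Log2 fold change of each gene in each comparison by edgeR, with bars for the 95% interval. The interval for Cxcl11 on day 1 against day 0 ran from 0.55 to 2.64, those of all 4 genes on day 7 against day 0 spanned 0, and the intervals of Cxcr3 were the widest, from 0.46 to 5.39 on day 3 against day 0.

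The proportions of the ligands were also compared, which sets the ligands of 1 tumor against each other. Within each tumor, Cxcl9 and Cxcl11 were compared as the log2 ratio of their CPM, which removes any factor common to both. The ratio was 2.08, 2.73 and 2.75 in the untreated tumors and 1.07, 1.90 and 0.86 on day 1. All 3 day 1 tumors lay below all 3 untreated tumors, by 1.24 on average (exact permutation p = 0.1, two-sided, the smallest that 3 tumors against 3 can give). Mean ratios of 2.51 ± 1.17, 2.78 ± 0.46 and 2.15 ± 0.48 (SD, n = 3) followed on days 3, 5 and 7. The log2 ratio of Cxcl10 to Cxcl11 was 1.74, 1.85 and 1.95 in the untreated tumors and 1.44, 1.50 and 1.22 on day 1, again without overlap and with a mean difference of -0.46 (exact permutation p = 0.1, two-sided). In each of the 3 day 1 tumors, Cxcl11 was thus higher relative to both other ligands than in any untreated tumor. The Cxcl9 to Cxcl10 ratio overlapped day 0 on day 1 (mean difference -0.79, exact permutation p = 0.2, two-sided). The share of other gene pairs whose ratios do not overlap between these days was not counted, so these ratios have no background beside them.

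Differences between days made up 56.3% of the variance of the Cxcl10 to Cxcl11 ratio (exact permutation p = 0.0658, adjusted p = 0.234 over 7 tests), 48.1% of that of the Cxcl9 to Cxcl11 ratio (adjusted p = 0.234) and 37.2% of that of the Cxcl9 to Cxcl10 ratio (exact permutation adjusted p = 0.280). Day 3 replicate 1 had a Cxcl9 to Cxcl10 log2 ratio of 2.12, against 0.12 and 0.47 in the other day 3 tumors.

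**Figure D3:**
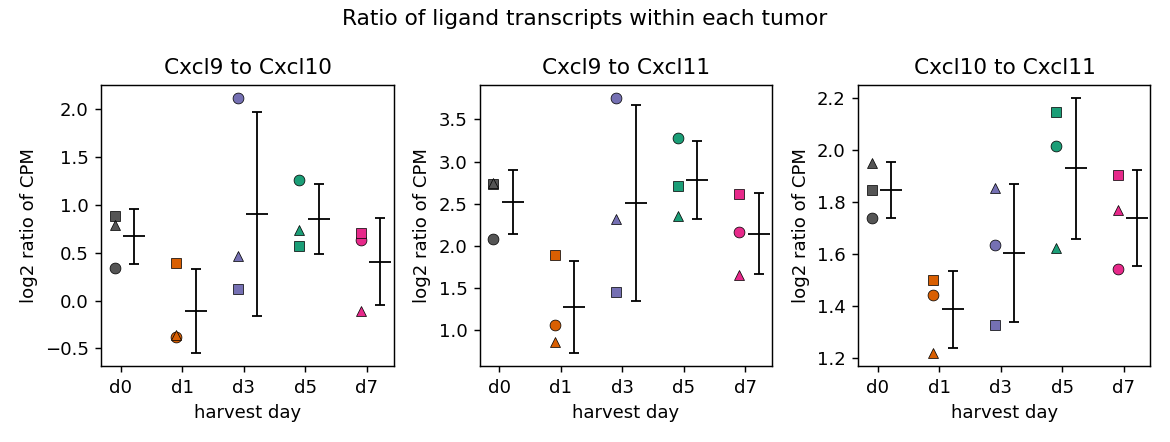
Log2 ratio of CPM between pairs of ligands within each tumor, by harvest day (d0 to d7), with the mean ± SD of 3 tumors beside the points. The day 1 tumors lie below the untreated tumors for Cxcl9 to Cxcl11 (means 1.28 and 2.52) and for Cxcl10 to Cxcl11 (means 1.39 and 1.85).

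Cxcr3, the receptor, was the least abundant of the 4 and the most variable, with a 197-fold range between the lowest and the highest tumor. Counts behind it were 27, 50 and 37 in the untreated tumors, 23, 14 and 95 on day 1, 614, 105 and 99 on day 3, 218, 95 and 28 on day 5, and 15, 91 and 3 on day 7. The last value equals the limit of 3 counts that a count of 0 allows. As levels, the untreated tumors held 0.91, 1.86 and 1.48 CPM and the day 3 tumors 24.7, 3.86 and 3.85 CPM. All 3 day 3 tumors lay above day 0, as held for 19.4% of all genes, with replicate 1 far above the others.

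The log2 fold change of Cxcr3 on day 3 was 2.93 ± 1.14 against day 0 (standard error, edgeR adjusted p = 0.131) and 2.87 ± 1.13 against day 1 (standard error, edgeR adjusted p = 0.265). Day 3 also lay above day 1 without overlap, as did 7.53% of all genes, and had an unadjusted p under 0.05, as did 12.8% of all genes. Against day 1 the log2 fold change without day 3 replicate 1 was 1.37 ± 1.05 (standard error, unadjusted p = 0.217, edgeR adjusted p = 0.910). With Cxcl11, Cxcr3 was among the 18.3% of all genes higher on day 3 than on day 0 at an unadjusted p under 0.05. On day 7 all 3 tumors lay below day 3, as held for 18.4% of all genes, with a log2 fold change of -2.94 ± 1.14 (standard error, edgeR adjusted p = 0.104). DESeq2 called Cxcr3 higher on day 3 than on day 0 (adjusted p = 0.0388), with 9.43% of the genes it tested. It also called Cxcr3 lower on day 7 than on day 3 (DESeq2 adjusted p = 0.0292), with 15% of the genes it tested. With day 3 replicate 1 left out, the log2 fold changes by edgeR were 1.45 against day 0 and -1.44 between days 3 and 7 (edgeR adjusted p = 0.520 and 0.461). DESeq2 then did not call the first (adjusted p = 0.472) and gave no adjusted p for the second. With day 7 replicate 2 left out instead, the log2 fold change between days 3 and 7 was -4.86. Day 5 and day 7 overlapped day 0, with 7.98, 3.38 and 1.00 CPM on day 5 and 0.61, 3.46 and 0.125 CPM on day 7.

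Cxcr3 was set against Cd3e, a chain of the T cell receptor complex present on every T cell. There were 0.415, 0.521 and 0.425 Cxcr3 counts for each Cd3e count in the untreated tumors and 0.5, 0.25 and 0.457 on day 1. On day 3 there were 0.867, 0.580 and 0.387, on day 5 there were 0.501, 0.409 and 0.475, and on day 7 there were 0.441, 0.805 and 0.176. Tumors of every treated day overlapped the untreated tumors on this measure, which was chosen after the levels were seen and not tested. Summed over 12 T cell genes, the level was 41.6 to 58.8 CPM in the untreated tumors and 412, 132 and 126 CPM in the day 3 tumors from highest to lowest, and none of the 12 was at 0 in every tumor. The part of T cell abundance in the Cxcr3 level was not tested beyond the correlations that follow.

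Across the 15 tumors, 15 pairs of genes were compared by correlation of log2 CPM, with 100000 permutations of the tumors and Benjamini-Hochberg adjustment over the 15. These p-values do not compare a pair with other genes. Ranks among all tested genes are given below for pairs of members. For the other pairs, the share of genes with as high an r was not counted. Cxcr3 followed Cd3e (Pearson r = 0.973, permutation p = 1e-05, the smallest that could be given, adjusted p = 3e-05, and Spearman rho = 0.921, p = 2e-05, adjusted p = 6e-05). It also followed Cd8a (r = 0.957, rho = 0.943) and Tbx21, which encodes T-bet (r = 0.952, rho = 0.943), each with permutation adjusted p = 3e-05 for r. Without the 2 tumors farthest from the median of Cxcr3, r was 0.953, 0.960 and 0.949. After the mean of each day was subtracted, r was 0.954, 0.922 and 0.909 (permutation adjusted p = 0.00244, 0.00244 and 0.00604), so the relations held among tumors of the same day.

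Among the ligands, the pair of Cxcl10 and Cxcl11 had the highest correlation. For Cxcl10 with Cxcl11, r was 0.943 (permutation p = 1e-05, adjusted p = 3e-05, rho = 0.936), 0.917 without the 2 farthest tumors and 0.947 within days. For Cxcl9 with Cxcl10, r was 0.629 (permutation p = 0.0127, adjusted p = 0.0173, rho = 0.693), 0.556 without the 2 farthest tumors and 0.591 within days (adjusted p = 0.0987). For Cxcl9 with Cxcl11, r was 0.484 (permutation p = 0.0668, adjusted p = 0.0771, rho = 0.611). The correlations were not tested against each other.

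Cxcl9 also followed the receptor. For Cxcl9 with Cxcr3, r was 0.895 (permutation p = 2e-05, adjusted p = 5e-05, rho = 0.886), 0.854 without the 2 farthest tumors and 0.850 within days. For Cxcl10 and Cxcl11 with Cxcr3, r was 0.420 and 0.317 (permutation adjusted p = 0.129 and 0.249). Both values depended on day 3 replicate 1, which was highest for Cxcr3 and low for these ligands. Leaving that tumor out gave r of 0.704 (permutation adjusted p = 0.00666) and 0.529 (permutation adjusted p = 0.0525).

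**Figure D4:**
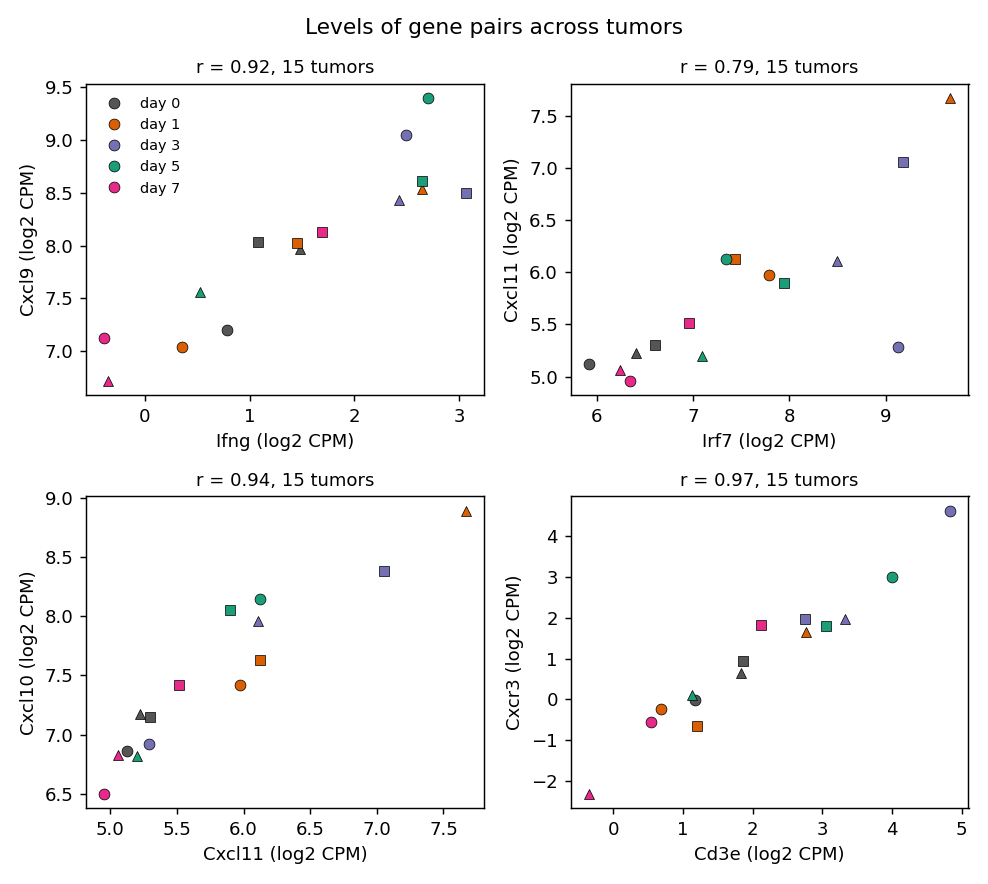
Log2 CPM of pairs of genes in the 15 tumors, colored by harvest day, with circles, squares and triangles for replicates 1, 2 and 3. Cxcr3 rises with Cd3e (r = 0.97), Cxcl9 with Ifng (r = 0.92) and Cxcl10 with Cxcl11 (r = 0.94), and day 3 replicate 1 lies off the trend of Cxcl11 with Irf7 (r = 0.79).

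Each ligand was set against Ifng, the interferon gamma gene, and Irf7, an interferon-induced transcription factor. With Ifng, r was 0.919 for Cxcl9, 0.795 for Cxcl10 and 0.674 for Cxcl11 (permutation adjusted p = 3e-05, 0.0009 and 0.00703, rho = 0.921, 0.850 and 0.743). Without the 2 farthest tumors r was 0.915, 0.764 and 0.613, and within days it was 0.877, 0.839 and 0.732 (permutation adjusted p = 0.00887, 0.00342 and 0.00602). With Irf7, r ran the other way, an order that was likewise not tested, with r = 0.623 for Cxcl9, 0.723 for Cxcl10 and 0.793 for Cxcl11 (permutation adjusted p = 0.0174, 0.00437 and 0.000686, rho = 0.679, 0.725 and 0.800). Without the 2 farthest tumors these were 0.712, 0.481 and 0.576, so that Cxcl9 then had the highest r. For Cxcl10 the relation rested on those tumors (permutation p = 0.0961). The tumors left out, here and for Ifng, differed between ligands. They were day 5 replicate 1 and day 7 replicate 3 for Cxcl9, and day 1 replicate 3 and day 3 replicate 2 for the others. Within days r was 0.581, 0.647 and 0.688 (permutation adjusted p = 0.0987, 0.0917 and 0.0987). Without day 3 replicate 1, where Irf7 was high at 560.1 CPM and Cxcl11 was 39.0 CPM, r with Irf7 was 0.562 for Cxcl9, 0.898 for Cxcl10 and 0.944 for Cxcl11. Without day 1 replicate 3 it was 0.626, 0.611 and 0.707.

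Among all tested genes, those with the most similar levels over the 15 tumors differed between the members. They are given by Pearson r as a description. For Cxcl9 they were Slamf8 (0.985), Serpina3g (0.973), Mmp25 (0.966), Gbp8 (0.964) and Serpina3f (0.964). For Cxcl10 they were Chil3 (0.960), Ogfr (0.957), Parp10 (0.939), Gm12250 (0.931) and Irgm1 (0.930). For Cxcl11 they were Cmtr1 (0.978), Ogfr (0.972), Ifi35 (0.972), Parp10 (0.967) and Dennd6b (0.966). For Cxcr3 they were Gimap4 (0.987), Cd226 (0.986), Pglyrp2 (0.986), Sorl1 (0.985) and S1pr4 (0.985). Ogfr and Parp10 stood in the lists of both Cxcl10 and Cxcl11. Among 15493 other genes, Cxcl11 ranked 3 by r for Cxcl10 and Cxcl10 ranked 12 for Cxcl11, while Cxcl9 ranked 854 and 1476 for them. Cxcl9 ranked 1147 for Cxcr3, Cxcl10 ranked 5360 and Cxcl11 ranked 5845. Seen from Cxcl9, Cxcr3 ranked 352, Cxcl10 ranked 3426 and Cxcl11 ranked 4603.

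The genes that induce the ligands were followed as a list of 18 genes for interferon receptors, JAK and STAT proteins, IRF factors, NF-kappaB and the sensor Tlr3. None was called over all genes in any comparison. At an unadjusted p under 0.05, 5 of 18 were higher on day 1 (2.18% of all genes) and 10 of 18 on day 3 (18.3% of all genes), and 12 of 18 were lower on day 7 than on day 3 (22.6% of all genes). Their median log2 fold changes of 0.16 (day 1) and 0.49 (day 3) compare with 0.00 and -0.03 over all genes. With day 3 replicate 1 left out, the day 3 count was 4 of 18 (6.52% of all genes), with a median of 0.34, and the count between days 3 and 7 was 8 of 18 (8.48% of all genes). With day 1 replicate 3 left out, the day 1 count was 3 of 18 (0.815% of all genes), with a median of -0.01. Irf7 stood at a mean of 80.9 CPM on day 0, at 221, 173 and 814 CPM in the day 1 tumors and at 560.1, 579 and 359 CPM in the day 3 tumors. Its log2 fold change was 2.32 ± 0.51 on day 1 and 2.63 ± 0.51 on day 3 (standard errors). Stat2, a transcription factor subunit of the type I interferon response, had log2 fold changes of 1.10 ± 0.30 on day 1 and 0.96 ± 0.30 on day 3. Tlr3 had 0.75 ± 0.22 on both days, and Irf9, which binds DNA together with Stat2, 0.54 ± 0.17 and 0.58 ± 0.17 (standard errors). The edgeR adjusted p on day 3 was 0.115 for each of these 4 genes. Without day 1 replicate 3 the day 1 log2 fold changes were 1.29 for Irf7, 0.68 for Stat2, 0.41 for Tlr3 and 0.33 for Irf9. Those of day 3 were 2.54, 1.04, 0.79 and 0.54 without day 3 replicate 1.

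Ifng was scarce and its pattern across tumors resembled that of Cxcl9. It stood at 1.65, 2.05 and 2.72 CPM on day 0 and 1.20, 2.67 and 6.19 CPM on day 1. On day 3 it stood at 5.55, 8.31 and 5.29 CPM, above all untreated tumors, as held for 19.4% of all genes. On day 5 it stood at 6.44, 6.19 and 1.36 CPM and on day 7 at 0.691, 3.15 and 0.710 CPM, which overlapped day 0.

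Proteins that process or bind the ligands were a list of 8, of which 7 were tested. On day 3, 2 were higher and 1 was lower at an unadjusted p under 0.05, against 18.3% and 11.7% of all genes. Without day 3 replicate 1 there were 0 in either direction among 6 tested, against 6.52% and 6.56% of all genes. Dpp4, a surface protease that trims the ligands, stood at 35.1, 5.70 and 6.84 CPM on day 3 against 1.52, 3.61 and 2.84 CPM on day 0, a log2 fold change of 2.58 ± 0.93 (standard error, edgeR adjusted p = 0.120) that was 1.24 without day 3 replicate 1. Ackr3, a scavenging receptor that also binds CXCL11, stood at 20.2 CPM on day 0 and 27.5 CPM on day 3 (log2 fold change 0.44 ± 0.31, edgeR adjusted p = 0.312, and 0.14 without that tumor). Ackr1, an erythrocyte and venule chemokine binder, had a mean of 0.321 CPM on day 0 and stood at 6.44, 1.76 and 0.311 CPM on day 3, the last of these within the untreated range. Ackr4 stayed under 0.7 CPM in all tumors.

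Control and signalling of the receptor were a list of 11 genes. At an unadjusted p under 0.05, 8 of 11 were higher on day 3 and 8 of 11 were lower on day 7 than on day 3, against 18.3% and 22.6% of all genes. Without day 3 replicate 1 these counts were 3 and 3, against 6.52% and 8.48% of all genes. The 4 genes with the smallest joint p were Arrb2 (log2 fold change on day 3 of 0.78 ± 0.22), an arrestin that uncouples the receptor, Rac2 (2.07 ± 0.60), a GTPase of leukocyte movement, the receptor kinase Grk2, listed as ADRBK1 (0.70 ± 0.21), and Itgal (1.53 ± 0.52), an integrin of lymphocyte adhesion (standard errors, edgeR adjusted p = 0.115 for each). These values were 0.55, 1.40, 0.46 and 1.08 without that tumor.

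Other chemokines were counted for comparison. Of 37 other ligand genes 29 were tested, and 10 were higher and 1 lower on day 3 at an unadjusted p under 0.05, with a median log2 fold change of 1.03. Of 27 tested without day 3 replicate 1, 9 were higher, with a median of 0.63. Over all genes 18.3% were higher on day 3, and 6.52% without that tumor. The 5 most abundant were Ccl2, Ccl8, Cxcl16, Ccl6 and Ccl7, with day 0 means of 173, 139, 132, 117 and 90.2 CPM, so that Cxcl9 at 219.7 CPM stood above each of them. Of 19 other receptors tested, 7 were higher on day 3 and 0 were lower, with a median of 0.95 (2 of 18 higher and a median of 0.56 without day 3 replicate 1). Abundant ones included Ccr2, Ccr1, Cx3cr1 and Cxcr4, with day 0 means of 108, 65.4, 26.3 and 21.9 CPM, against 1.42 CPM for Cxcr3. On day 3 the log2 fold change was 0.84 ± 0.37 for the monocyte receptor Ccr2 (standard error, edgeR adjusted p = 0.158) and 0.43 without day 3 replicate 1.

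Markers of cells that carry the receptor or can make the ligands were counted on day 3, and none was called at an adjusted p under 0.05. At an unadjusted p under 0.05, 11 of 12 T cell genes, 8 of 10 NK and cytotoxic cell genes, 9 of 10 macrophage genes, 3 of 10 dendritic cell genes and 4 of 8 endothelial genes were higher than on day 0, against 18.3% of all genes, and 1 dendritic cell gene was lower. Without day 3 replicate 1 the T cell count was 2 of 12, the NK and cytotoxic count 6 of 10, the macrophage count 7 of 10, the dendritic cell count 1 of 10 and the endothelial count 0 of 8, with 1 endothelial and 1 macrophage gene lower, against 6.52% of all genes higher. Examples on day 3 are Cd8b1 (log2 fold change 2.67 ± 0.87), a chain of CD8, Klrd1 (2.56 ± 0.86), a receptor of NK cells, and Adgre1 (1.91 ± 0.45), the macrophage antigen F4/80 (standard errors, edgeR adjusted p = 0.115 for each), which were 1.76, 1.94 and 1.45 without that tumor. Macrophage genes summed to 1651 to 1800.0 CPM in the untreated tumors, 2757 to 6916 CPM on day 3 and 1105 to 2414 CPM on day 7, NK and cytotoxic cell genes to 114 to 165, 313 to 557 and 35.2 to 181 CPM, and endothelial genes to 187 to 200.1, 189 to 601 and 102 to 199 CPM. Dendritic cell genes summed to 364 to 369.8 CPM in the untreated tumors, 343 to 415 CPM on day 3 and 324 to 364 CPM on day 7, so days 0 and 3 overlapped. B cell genes were higher on day 3 for 4 of 6 tested and lymph node stroma genes for 3 of 5, and with day 3 replicate 1 left out these counts were 2 of 5 and 1 of 4 tested. Genes of the fibroblast and fibrosarcoma list do not separate the tumor line from host fibroblasts. They were present in every tumor, with sums from 8514 to 32930 CPM and the highest in day 3 replicate 1. On day 3, 4 of 10 were higher and 2 lower at an unadjusted p under 0.05, against 18.3% and 11.7% of all genes. Without that tumor 0 were higher and 2 lower, against 6.52% and 6.56% of all genes. The part of these cell types in the level of the 4 members was not tested.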

How the data were processed

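Poly(A) RNA of 15 tumors was sequenced as 100 base single-end reads. The authors estimated transcript abundance with kallisto against GRCm38 (per the submitters' processing notes), summed it to genes and deposited estimated counts, already whole, in 1 column per tumor. The transcript set and the use of strand are not given in the sources used here. Kallisto divides reads among transcripts that fit, so reads shared with overlapping or near-identical genes are uncertain.

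The table had 32544 entries, 9156 of them without a count. One entry, a gene name turned into a date, was dropped (0.0268% of counts at most). Harvest days came from the time point labels. The 15494 genes whose CPM exceeded 0.366 in 3 or more tumors were fitted with edgeR 4.0.16 (R 4.3.3), TMM factors and all 15 tumors, with day as the only term, and quasi-likelihood F tests were adjusted over all genes by Benjamini-Hochberg. CPM values are TMM-scaled, and log2 CPM used a prior count of 2. DESeq2 1.42.0 was an alternative, as were its size factors, no filter, a replicate block, fits of 6 tumors, leaving out tumors, a prior count of 0.5 and CPM on total counts. Permutation tests used Python 3.11.15 with scipy 1.17.1. Scripts were tested on simulated counts with the same spread for every gene and no tumor that stood apart. That test does not show how the methods behave on tumors like these. Floors and intervals cover counting error only where they rest on counts, because PCR copies were not marked.

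The members, lists and tests were chosen with earlier results of these data known. From each pathway list the 4 genes with the smallest unadjusted joint p were named, from other chemokines the 5 most abundant ligands and receptors, and for each member the 5 genes with the highest Pearson r. Ackr3, Ackr4, Ifng, Cd3e, Cd8a and Tbx21 were named as single genes. Some genes that these rules select are not reported here. Deviations of same-numbered tumors from their day means had no common direction (30 pairs, correlations from -0.619 to 0.511, median -0.096, 9 over 0.1). Replicate 3 of days 3, 5 and 7 gave 0.492, 0.511 and 0.48 with each other. Replicate 3 of day 1 gave -0.531, -0.619 and -0.54 with those tumors. With 3 tumors per day this check cannot exclude a shared batch. Replicate numbers were not taken to pair tumors, because the labels give no pairing. Promoter sequences are from RefSeq.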

Additional observations from a re-analysis of the deposited data

How the results depend on the processing

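The limits are few tumors per day, the scarcity of Cxcr3 (3 counts in a day 7 tumor) and 2 tumors that stand apart. Values below are log2 fold changes unless stated. Of 957 values under the alternatives, 901 kept their direction and their side of the threshold, or stayed within the set range. Of the other 56, 30 turned direction, 16 passed a threshold that was missed before, 4 no longer passed one and 6 moved out of the range. DESeq2 called more than edgeR, which called 0 of the 4 genes and 0.0% of all genes. On day 3 against day 0 DESeq2 called 1 of the 4 (Cxcr3, 2.98, adjusted p = 0.0388), with 9.43% of the genes it tested called higher. Between days 3 and 7 it called 2 (Cxcl9, -1.25, and Cxcr3, -2.99), with 15% of the genes it tested called lower. In the joint test it called Cxcl11 (DESeq2 adjusted p = 0.0259), with 7.84% of the genes it tested.

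DESeq2 fits without 1 tumor, and values of listed genes without 1 tumor, were chosen after seeing the data. The share of all genes called in those DESeq2 fits was not counted. The numbers of members called below therefore have no background beside them. Without day 1 replicate 3, DESeq2 called 2 genes on day 3 against day 0 (Cxcr3, 2.98, and Cxcl11, 1.12), 1 between days 1 and 3 (Cxcr3, 4.08), 3 between days 3 and 7 (Cxcl9, -1.26, Cxcl11, -1.13, and Cxcr3, -2.99), and in the joint test Cxcl11 (DESeq2 adjusted p = 0.0381) and Cxcr3 (DESeq2 adjusted p = 0.0134). It turned Cxcl9 (-0.17) and Cxcr3 (-1.09) on day 1 against day 0 and Cxcl10 (0.36) and Cxcl11 (0.29) on day 3 against day 1. Without day 3 replicate 1, DESeq2 called 1 gene on day 1 against day 0 (Cxcl11, 1.60, adjusted p = 0.0201) and Cxcl11 in the joint test (DESeq2 adjusted p = 0.00307), called no other gene to which it gave an adjusted p, and gave Cxcl10 0.05 on day 3 against day 1.

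With both of those tumors left out of edgeR, the values that turned were Cxcl9 (-0.16) and Cxcr3 (-1.07) on day 1 against day 0, Cxcl10 (0.65) and Cxcl11 (0.60) on day 3 against day 1, and Cxcr3 (0.001) on day 7 against day 0. In fits of the 6 tumors of days 0 and 7 alone, Cxcl11 was 0.006 and Cxcr3 0.011. Leaving out each tumor in turn, edgeR called none of the 4 genes, and the ranges that crossed 0 were, on day 1 against day 0, -0.16 to 0.52 for Cxcl9 and -1.08 to 0.44 for Cxcr3. On day 7 against day 0 they were -0.40 to 0.088 for Cxcl10, -0.21 to 0.089 for Cxcl11 and -1.93 to 0.53 for Cxcr3, and on day 3 against day 1 they were -0.61 to 0.35 for Cxcl10 and -1.06 to 0.28 for Cxcl11.

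The fit with the replicate block changed no call of the 4 genes. It gave Cxcr3 2.65 on day 3 against day 0 (edgeR adjusted p = 0.211) and Cxcl11 1.56 on day 1 (edgeR adjusted p = 1.0), and the samples share only a number. The correlations of 15 pairs lost their adjusted p under 0.05 within days for Cxcl9 with Cxcl10 (0.591), and for Irf7 with Cxcl9 (0.581), Cxcl10 (0.647) and Cxcl11 (0.688). Without day 3 replicate 1 they gained it for Cxcr3 with Cxcl10 (0.704) and for Cxcl9 with Cxcl11 (0.597).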
